A study of Mus musculus with 6 samples.

Results

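Membrane adenylyl cyclases are the enzymes that turn ATP into cyclic AMP (cAMP) at the cell membrane. Their mRNAs were followed in the dorsal pancreas of mouse embryos that lack Bicaudal C1 (Bicc1), an RNA-binding protein. The family was taken by gene symbol, Adcy1 to Adcy9, and all 9 genes were found among the 24389 genes of the files. The tissue came from E13.5 embryos, and RNA sequencing gave 3 libraries of Bicc1 knockouts (KO 1 to KO 3) and 3 of wild types (WT 1 to WT 3), all of mixed C57BL/6 and ICR background. Values of single libraries are given in that order. The labels used here do not name the knockout allele, and they do not say whether a library is 1 embryo or a pool, so p-values reflect the spread between these libraries alone, which may be technical. Markers of the labelled tissue were present in every library: the early acinar enzyme Cpa1, for example, lay between 193 and 304. Summed over all genes, the values of a library came to 674295 (WT 2) at the least and 716255 (KO 1) at the most, which are not read totals.

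Each membrane cyclase is switched on by the stimulatory G protein subunit that hormone receptors release, and the cAMP it makes acts through protein kinase A, the EPAC exchange factors and CREB-type transcription factors. The isoforms differ in what else controls them: Adcy1, Adcy3 and Adcy8 are stimulated by calcium and calmodulin, Adcy2, Adcy4 and Adcy7 respond to G protein beta-gamma subunits, Adcy5 and Adcy6 are inhibited by calcium and by inhibitory G proteins, and Adcy9 responds little or not at all to the plant compound forskolin. In the adult pancreas cAMP raises insulin release from beta cells and fluid secretion by ducts. In mouse kidney, Adcy6 mRNA is a known target of Bicc1, which silences it, and raised cAMP drives the growth of kidney cysts.

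Adcy5 and Adcy6 are the closest relatives in the family, so the sequence behind their separate values is shown first. Over aligned coding bases of the GENCODE M21 transcripts, Adcy5 and Adcy6 were 73.5% identical, while the other pairs of the 36 were between 59.4% and 66.6% identical. The longest run of bases shared exactly by any pair was 33 bases, and the longest run that Adcy6 shared with any other member was 31 bases. The stretch around the longest exact match of Adcy5 and Adcy6, 29 bases, is given here in the transcript's direction, 5′ to 3′, with capitals at the 15 of 119 positions where the genes differ. It covers coding bases 3250 to 3368 of Adcy5 (chromosome 16) and 2971 to 3089 of Adcy6 (chromosome 15), counted from the start codon.
Adcy5: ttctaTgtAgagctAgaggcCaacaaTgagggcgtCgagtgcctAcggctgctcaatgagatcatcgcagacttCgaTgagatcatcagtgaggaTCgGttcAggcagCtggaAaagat
Adcy6: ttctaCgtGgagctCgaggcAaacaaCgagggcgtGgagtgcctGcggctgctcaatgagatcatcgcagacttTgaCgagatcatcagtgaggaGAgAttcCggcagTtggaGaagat
A read that is longer than these shared runs therefore differs between members in the coding sequence. The sources used here give neither the read length nor the treatment of reads that match several places.

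The values are a signal per gene whose unit the authors do not state. Their decimals were examined for a division by length. For 974 of 1000 multi-exon genes (97.4%), 1 whole number of bases turned the values of all 6 libraries into multiples of 0.01, within a tolerance of 0.005 of such a step and a rounding allowance that grows with the number of bases. In 343 of these genes the number equals the exonic length in the GENCODE M21 annotation exactly, and so it does for 3 members, Adcy1 (12522 bases), Adcy2 (4211 bases) and Adcy3 (6246 bases). For the other 6 members the smallest such number was below the annotated exonic length: 3500 against 4672 bases for Adcy4, 7007 against 7184 for Adcy5, 6017 against 6782 for Adcy6, 6330 against 6733 for Adcy7, 5032 against 8152 for Adcy8 and 2650 against 5197 for Adcy9. Across 11654 multi-exon genes the mean value did not follow exonic length (Spearman's rho -0.003, across genes, which are not replicates). Levels of different cyclases are compared as values per base on this reading of the scale, which the authors do not state and which the annotated lengths match for 3 of the 9 members. The floor of the scale is 0.01, and the number of reads behind a value is unknown, so no counting interval is given.

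Adcy6 was the leading adenylyl cyclase of the embryonic dorsal pancreas in every library of both genotypes. It was 10.6, 14.1 and 10.7 in the knockouts, against 10.7, 10.3 and 11.1 in the wild types. KO 2 alone stood above the WT libraries, and the other KO values lay inside the WT range. In each library the value of Adcy6 was 2.86 to 3.14 times that of the next cyclase. Adcy6 made up 43.7% ± 2.45 of the summed value of the 9 members in KO and 46.2% ± 1.03 in WT (± SD, with n = 3 per genotype), and these shares overlapped. Its mean over the 6 libraries, 11.3, lay at the 77.2 percentile of all genes in the files.

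A middle tier followed of Adcy3, Adcy9 and Adcy1, with means over the 6 libraries of 3.63, 3.51 and 2.93. The ranges of Adcy3 and Adcy9 overlapped, with Adcy3 above Adcy9 in 4 of 6 libraries. The ranges of Adcy9 and Adcy1 also overlapped, although Adcy9 was the higher of the pair in 6 of 6 libraries. Adcy7, with a mean of 1.28, lay below every value of the middle tier. Adcy5 (0.824), Adcy4 (0.754) and Adcy2 (0.736) formed a low tier whose ranges overlapped one another, and every Adcy7 value was above every one of theirs. Adcy8 was the lowest member, between 0.095 and 0.161, which is above the floor in all libraries. Of the 9 members, 5 had a mean of at least 1, the level required for testing, and Adcy2, Adcy4, Adcy5 and Adcy8 did not. The soluble cyclase Adcy10, which is not a membrane enzyme and not a member, was 0.017 in KO 1 and at the floor of 0.01 in the other 5 libraries.

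**Figure D1:**
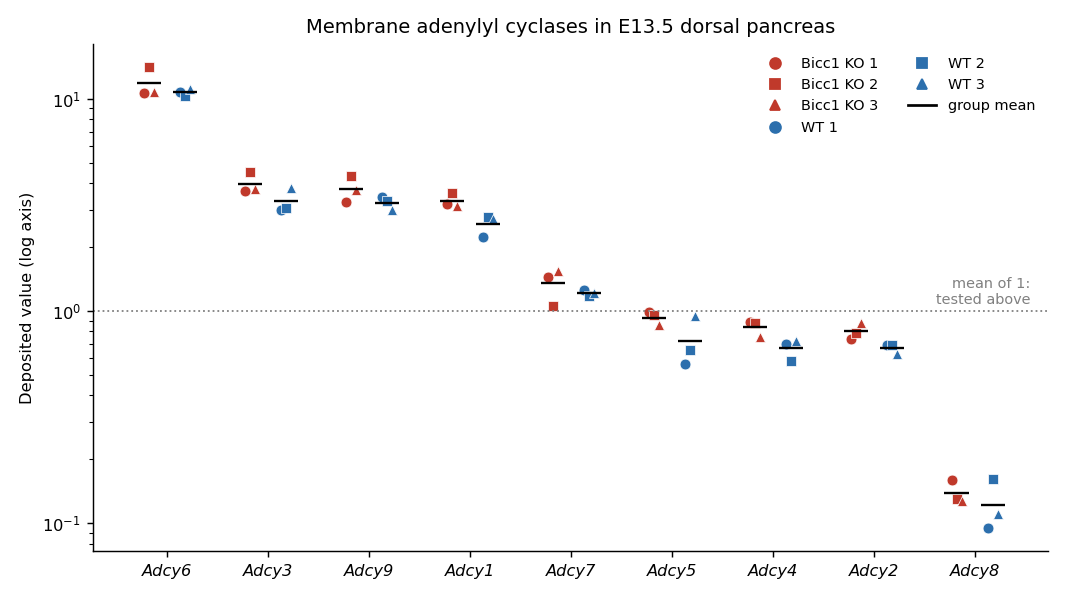
Deposited value of each membrane adenylyl cyclase (log axis, unit not stated by the authors) in the 3 Bicc1 KO libraries (red, left of each pair) and the 3 WT libraries (blue, right), with the group means as black bars, ordered by mean. Adcy6 stands above all other members in all 6 libraries, and Adcy8 is the lowest.

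By regulatory class, the calcium- and Gi-inhibited pair of Adcy5 and Adcy6 held 47.2% ± 2.21 of the summed family value in KO and 49.2% ± 0.917 in WT (± SD, with n = 3 per genotype). The calcium- and calmodulin-stimulated class of Adcy1, Adcy3 and Adcy8 held 27.6% ± 0.53 in KO and 25.7% ± 2.09 in WT. The class that responds to beta-gamma subunits, Adcy2, Adcy4 and Adcy7, held 8.95% to 12.5% in KO and 10.6% to 11.6% in WT, and Adcy9 held 14.0% ± 0.811 in KO and 14.0% ± 1.51 in WT. The ranges of KO and WT overlapped for each class. The summed value of the family was 24.9, 30.3 and 25.4 in the knockouts, against 22.7, 22.6 and 24.3 in the wild types. Every KO sum was above every WT sum, with KO 1 and WT 3 the closest. Without Adcy6 the sums averaged 15.1 ± 0.997 in KO and 12.5 ± 0.608 in WT, again with no overlap. Of single genes tested, 7.67% had all KO values above all WT values. The sums were not tested and carry no correction for GC content. With that correction, described below, the median log2 change of the 5 tested members was 0.014, against 0.16 without it.

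The knockout label was checked on Bicc1 itself, which lay at 3.96 to 4.91 in KO and at 18.2 to 19.7 in WT. Its mean in KO was 23.3% of that in WT. The log2(value + 1) of Bicc1 fell by 1.89 (95% interval -2.09 to -1.69), and limma gave an adjusted p of 0.000674 (Benjamini-Hochberg, over 13911 genes). That scale is used for all log2 changes here, and it understates changes of genes with low values.

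No adenylyl cyclase passed the test between KO and WT. Of the 5 members tested, 0 had an adjusted p under 0.05 in limma and 1, Adcy1, had an unadjusted p under 0.05. Among all 13911 genes tested, 2 (0.0144%) passed in limma at the adjusted threshold, all lower in KO and 1 of them Bicc1 itself. An unadjusted p under 0.05 in limma was seen in 10.3% of them. All 9 members had a higher mean in KO, at 110% to 129% of the WT mean, and the median log2 change of the 5 tested members was 0.16, where the median of all genes tested was 0.014. A higher mean log2 value in KO was seen in 53.5% of all genes tested, in 56.6% of all genes in the files, and in 63.8% of the genes with a mean between 0.1 and 1, where the 4 untested members lie. In the fit with no filter on low values, 0 of 9 members had an adjusted p under 0.05 in limma (0.0041% of all genes) and 2, Adcy1 and Adcy4, had an unadjusted p under 0.05 (9.41% of all genes).

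Adcy6, the Bicc1 target known from kidney, averaged 11.8 ± 2.0 in KO and 10.7 ± 0.442 in WT (± SD, with n = 3 per genotype). Its log2 change was 0.12 with a 95% interval from -0.15 to 0.38 and an adjusted p of 0.641 in limma, so the difference was within the spread between libraries. The change rested on KO 2: without that library it was -0.0067, and after a correction for GC content it was -0.02. Its relative Adcy5, which also falls under inhibition by calcium, was 0.983, 0.952 and 0.855 in the knockouts, against 0.56, 0.651 and 0.946 in the wild types. WT 1 and WT 2 lay below all KO libraries, while WT 3 lay among them. With a mean under 1, Adcy5 was not tested in the main fit. In the fit with no filter on low values its log2 change was 0.17 (95% interval -0.05 to 0.4), with an adjusted p of 0.569 in limma.

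Among the calcium- and calmodulin-stimulated cyclases, the groups did not overlap for Adcy1. Adcy1, an isoform best known from the nervous system, was 3.19, 3.59 and 3.11 in the knockouts, against 2.22, 2.77 and 2.72 in the wild types. Its lowest KO value exceeded its highest WT value, a pattern found in 7.67% of the genes tested. The log2 change was 0.27 (SE 0.095, 95% interval 0.05 to 0.49), with an unadjusted p of 0.0226 and an adjusted p of 0.469 in limma. Among the genes tested, 5.89% were higher in KO at an unadjusted p under 0.05. Its rank by p among the 13911 genes was 644, and over the alternatives the adjusted p ranged from 0.182 to 0.908. The markers of neurons, where Adcy1 is known to be expressed, had a summed value of 36.4 to 43.3 in KO and 38.6 to 46.9 in WT. A higher mean log2 value in KO was seen in 1 of 6 tested neuron markers, and in 53.5% of all genes tested. The part of neurons in the Adcy1 values was not tested.

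Adcy3, the cyclase of olfactory cilia and of primary cilia, was 3.67, 4.5 and 3.74 in the knockouts, against 2.99, 3.07 and 3.81 in the wild types. The groups overlapped through WT 3, which lay above KO 1 and KO 3. Its log2 change was 0.21 (95% interval -0.04 to 0.46) with an adjusted p of 0.478 in limma. Adcy8, the lowest member, averaged 0.138 ± 0.0177 in KO and 0.122 ± 0.0347 in WT (± SD, with n = 3 per genotype), with overlapping groups.

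Of the beta-gamma-responsive cyclases, Adcy4 and Adcy2 had all KO values above all WT values at levels under 1. Adcy4 was 0.891, 0.879 and 0.755 in the knockouts, against 0.697, 0.581 and 0.721 in the wild types. Adcy2 was 0.739, 0.783 and 0.881 in the knockouts, against 0.691, 0.692 and 0.628 in the wild types. All KO values were above all WT values in 10.0% of the 5119 genes with a mean between 0.1 and 1, and in 7.62% of all genes in the files. In the fit with no filter, the log2 change of Adcy4 was 0.14 (unadjusted p 0.0432, adjusted p 0.527 in limma) and that of Adcy2 was 0.11 (adjusted p 0.542). With a GC correction added to that fit the change of Adcy4 was 0.081 (unadjusted p 0.191) and that of Adcy2 was 0.071 (unadjusted p 0.287). Adcy4 is known from endothelium. The summed value of endothelial markers was 101 to 124 in KO and 86.4 to 91.8 in WT, and none was at the floor in all libraries. A higher mean log2 value in KO was seen in 7 of 8 markers, and in 53.5% of all genes tested. Their median log2 change was 0.32, and 0.17 after GC correction, and 0 of them had an adjusted p under 0.05 in limma. The part of endothelial cells in the Adcy4 values was not tested, and in whole tissue a change in the number of cells of a type and a change of RNA per cell cannot be told apart.

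Adcy7, an isoform prominent in blood cells, averaged 1.35 ± 0.26 in KO and 1.21 ± 0.0395 in WT (± SD, with n = 3 per genotype). KO 2 was the lowest of all libraries at 1.05, while KO 1 and KO 3 were the highest at 1.44 and 1.55. The log2 change was 0.078 (95% interval -0.16 to 0.31) with an adjusted p of 0.73 in limma. Leukocyte markers summed to 31.4 to 47.1 in KO and 32.8 to 40.4 in WT. Of these, 6 of 7 tested had a higher mean log2 value in KO, as did 53.5% of all genes tested. The median log2 change of the leukocyte markers was 0.22, and 0.12 after GC correction. Their part in the Adcy7 values was not tested. Adcy9 was 3.26, 4.33 and 3.71 in the knockouts, against 3.45, 3.29 and 3.0 in the wild types. The groups overlapped, and the log2 change of 0.16 (95% interval -0.076 to 0.4) had an adjusted p of 0.506 in limma.

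**Figure D2:**
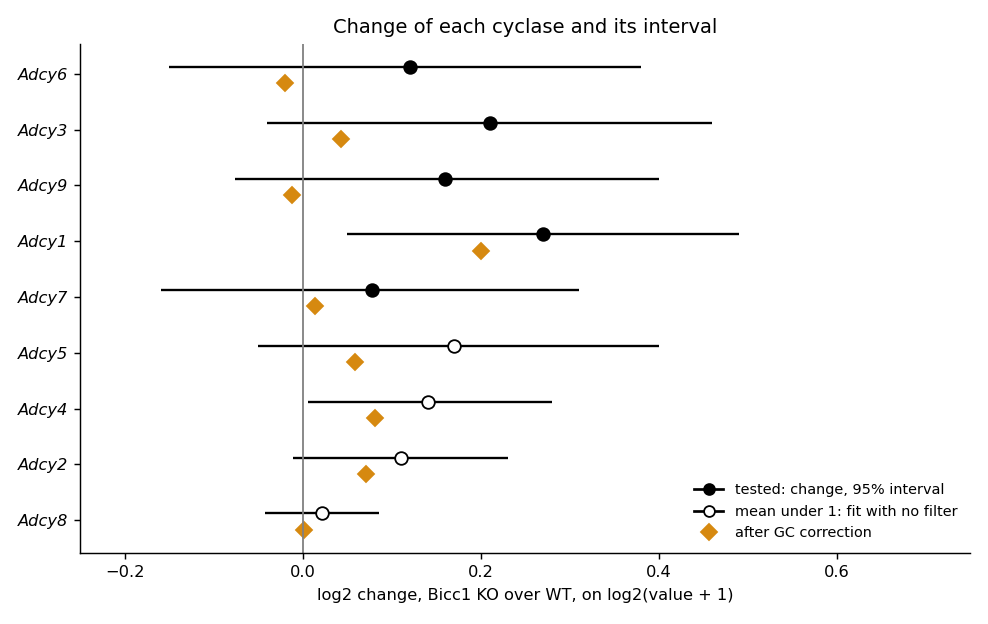
Log2 change of each cyclase, Bicc1 KO over WT on log2(value + 1), with its 95% interval (circles; filled for the 5 tested members, open for members with a mean under 1 in the fit with no filter), and the change after a GC correction (orange diamonds; fitted with no filter for the open circles). All circles lie above 0 and all diamonds lie left of their circles, with Adcy1 farthest from 0 at 0.27 before and 0.2 after the correction.

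The GC content of the members was also examined, and the libraries differed in how their values ran with GC content. All 9 members had transcripts richer in G and C than the median tested gene (50.8% to 59.5%, against 49.3%). Across the tested genes with a GC content, which are not replicates, Spearman's rho between GC content and the log2 change was 0.62. In single libraries the rho between GC content and a gene's deviation from its mean was 0.5, 0.61 and -0.19 for the knockouts, against -0.56, -0.66 and 0.4 for the wild types. After a correction for GC content in each library, the median log2 change of the 5 tested members was 0.014, where that of all corrected genes was 0.0027. After it, Adcy1 was at 0.2 (95% interval 0.018 to 0.39), Adcy3 at 0.043 and Adcy7 at 0.014, while Adcy6 was at -0.02 and Adcy9 at -0.012. None had an adjusted p under 0.05 in limma, and that of Adcy1 was 0.586. In the GC-corrected fit with no filter on low values, which covers all 9 members, 9 were above 0 with a median of 0.063. They ran from 0.00073 for Adcy8 to 0.23 for Adcy1. The share of all genes above 0 in that fit is not given here, so the count has no background. Without the correction, 56.6% of all genes and 63.8% of those with a mean between 0.1 and 1 were above 0. Adcy7, with a GC content of 52.4%, was highest in KO 3 and lowest in KO 2. Among the KO libraries rho ran the other way, lowest in KO 3 and highest in KO 2. The part of the GC relation in the Adcy7 values was not tested.

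The libraries were also compared within each sign of that GC relation: KO 1 with KO 2 was set against WT 3, and KO 3 against the mean of the remaining wild types. The log2 difference of Adcy1 was 0.24 within both sets. For Adcy3 it was 0.074 in the first set and 0.23 in the second, for Adcy9 0.25 and 0.11, for Adcy6 0.13 and 0.025, and for Adcy7 0.011 and 0.21. With 1 library on a side in each set, the separate differences have no test. The sign does not match the strength of the relation. In the first set rho was 0.5 and 0.61 in KO against 0.4 in WT. In the second it was -0.19 in KO against -0.56 and -0.66 in WT. A difference in GC relation between KO and WT thus remained in both sets, and the sign term below carries the same limit. With the sign of the GC relation as a term in limma over all 6 libraries, the log2 change was 0.24 for Adcy1 (unadjusted p 0.0357, adjusted p 0.38), 0.15 for Adcy3 (adjusted p 0.494), 0.18 for Adcy9 (0.48), 0.075 for Adcy6 (0.778) and 0.11 for Adcy7 (0.656).

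**Figure D3:**
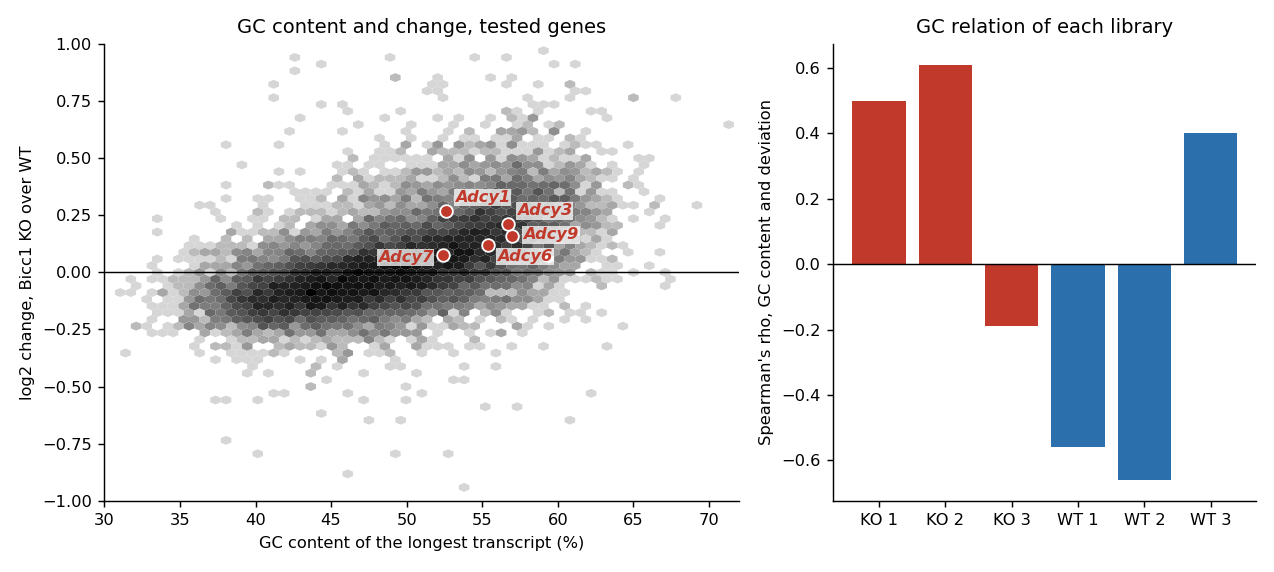
Left, log2 change of the tested genes (Bicc1 KO over WT) against the GC content of their longest transcript, shaded by gene density on a log scale, with the 5 tested cyclases in red and the 24 genes beyond a change of 1 outside the axes. Right, Spearman's rho across genes between GC content and deviation in each library, positive in KO 1, KO 2 and WT 3 and negative in KO 3, WT 1 and WT 2.

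The genes with profiles most like those of the leading cyclase were taken by Pearson's r of log2 values over the 6 libraries, as a description. For Adcy6 these were Tbc1d25 (0.996), Dusp3 (0.995), Mast3 (0.992), Lzts3 (0.991) and Pick1 (0.991), each highest in KO 2. For Adcy1, the member with the lowest p, they were Cds2 (0.996), Mprip (0.993), Trim45 (0.99), Tbx2 (0.988) and Ppp6r2 (0.987), each lowest in WT 1. Adcy6 was itself highest in KO 2 and Adcy1 lowest in WT 1, so these shared extremes follow from the choice by likeness. Among the tested cyclases the highest r was 0.84, between Adcy1 and Adcy3, and the lowest was -0.61, between Adcy6 and Adcy7. The correlations rest on 6 libraries, and the part of the GC relation given above in them was not tested.

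The other genes of cAMP signalling were read in the same fit, from the receptors down. In 13 lists of receptors, G proteins, regulators, phosphodiesterases and effectors, 0 genes had an adjusted p under 0.05 in limma, so their members are given by value. Over the 106 distinct genes tested in them, 7 were higher and 5 lower in KO at an unadjusted p under 0.05, together 11.3%, where all genes tested gave 10.3%. A higher mean log2 value in KO, counted for each list below, was seen in 53.5% of all genes tested. Among Gs-coupled receptors, which activate the cyclases, 10 of 44 genes in the files were tested, and 5 had a higher and 5 a lower mean log2 value in KO. The calcitonin receptor gene Calcr averaged 8.79 ± 1.27 in the knockouts and 16.8 ± 0.398 in the wild types (SD, n = 3). Its groups did not overlap, with KO below WT as in 8.77% of genes tested, and the adjusted p was 0.117 in limma with a log2 change of -0.87. Vipr2, a receptor for vasoactive intestinal peptide, averaged 2.24 ± 0.552 in KO and 3.28 ± 0.398 in WT (± SD, with n = 3 per genotype), with overlapping groups and an adjusted p of 0.469 in limma. Among Gi-coupled receptors, which restrain the cyclases, 8 of 35 were tested, with 4 higher and 4 lower. The lysophosphatidic acid receptor gene Lpar1 averaged 59.0 ± 10.6 in KO against 48.4 ± 1.91 in WT, and the cannabinoid receptor gene Cnr1 was 1.81 ± 0.344 in KO and 1.39 ± 0.134 in WT (± SD, with n = 3 per genotype).

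Gnas, which encodes the stimulatory subunit that activates all membrane cyclases, was 158, 160 and 165 in the knockouts, against 185, 177 and 173 in the wild types. No KO value reached the lowest WT value, a pattern found in 8.77% of the genes tested. The log2 change of Gnas was -0.15 (unadjusted p 0.0544, adjusted p 0.469 in limma), and -0.34 after GC correction. Gnal, the stimulatory subunit first known from olfactory neurons, averaged 1.16 ± 0.174 in KO and 1.09 ± 0.0509 in WT (± SD, with n = 3 per genotype). Of 5 inhibitory alpha subunits, 2 had a higher and 3 a lower mean log2 value in KO. Gnai2 was 113 ± 6.74 in KO and 91.6 ± 18.9 in WT, and Gnai3 was 78.2 ± 5.82 in KO and 86.0 ± 3.77 in WT (± SD, with n = 3 per genotype). Ric8a, a chaperone of G protein alpha subunits, was 13.2 ± 0.816 in KO and 10.8 ± 1.3 in WT. Gng5, a gamma subunit, was 45.3 ± 3.64 in KO and 54.4 ± 2.37 in WT, and each had an adjusted p of 0.469 in limma. Among calmodulin, calcineurin and the calmodulin kinases 6 of 11 tested genes had a higher mean, with Camk2a at 3.19 ± 0.452 in KO and 2.29 ± 0.42 in WT and Camk2g at 3.67 ± 0.227 in KO and 3.13 ± 0.134 in WT (± SD, with n = 3 per genotype).

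Phosphodiesterases break cAMP down, and 9 of 15 in the files were tested. Of these, 7 had a higher and 2 a lower mean log2 value in KO, with a median change of 0.11. Pde4b was 1.88, 2.02 and 2.52 in the knockouts, against 1.51, 1.56 and 1.4 in the wild types. Pde3b had 5.24, 5.58 and 5.6 in the knockouts, against 6.65, 6.89 and 6.01 in the wild types. The groups did not overlap for either gene, and both had an adjusted p of 0.469 in limma.

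Downstream, 8 of 9 genes for protein kinase A subunits and inhibitors were tested, of which 2 had a higher and 6 a lower mean. The regulatory subunit gene Prkar1a was 105 ± 0.994 in KO and 110 ± 1.19 in WT, and Prkar2b was 16.3 ± 0.824 in KO and 18.7 ± 2.31 in WT (± SD, with n = 3 per genotype). Pkia, the gene of a kinase A inhibitor that is also a known Bicc1 target in kidney, was chosen with its values known. Its mean was 10.8 ± 1.16 in KO, against 11.3 ± 1.28 in WT (± SD, with n = 3 per genotype), with an adjusted p of 0.811 in limma. Of the anchoring proteins that hold kinase A near cyclases, 7 of 11 had a higher mean, with Akap1 at 10.8 ± 1.12 in KO and 9.3 ± 0.495 in WT and Akap12 at 109 ± 20.5 in KO and 85.7 ± 10.7 in WT. Popdc3 and Bves, Popeye proteins that bind cAMP, were 1.3 ± 0.711 and 3.17 ± 1.4 in KO, and 0.753 ± 0.148 and 2.03 ± 0.426 in WT, with overlapping groups.

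At the end of the pathway, 6 of 8 genes of the CREB family and its coactivators had a higher mean in KO. Among all genes tested, 53.5% had a higher mean log2 value in KO. The median log2 change of the list was 0.13, and 0.043 after GC correction. Crtc1 was at 4.16 ± 0.574 in KO and 3.44 ± 0.732 in WT, and Crebbp at 2.57 ± 0.703 in KO and 2.02 ± 0.368 in WT (± SD, with n = 3 per genotype). After GC correction the log2 changes of Crtc1 and Crebbp were 0.06 and 0.18. Of the early target genes of CREB, 9 of 16 were tested and 8 were higher on average in KO. Their median log2 change was 0.12, and 0.074 after GC correction. Crem, Pde4b and Pde4d of this list also belong to the CREB family or phosphodiesterase lists. Dusp1, a phosphatase induced by many stimuli, was 5.08, 5.79 and 6.61 in the knockouts, against 4.4, 4.68 and 4.93 in the wild types. Its groups did not overlap, with KO above WT as in 7.67% of the genes tested. The adjusted p was 0.469 in limma, and the log2 change of 0.26 was 0.16 after GC correction. The related guanylyl cyclases that make cyclic GMP had 4 tested genes, all with a higher mean in KO. The natriuretic peptide receptor Npr1 was 1.58 ± 0.12 in KO and 1.32 ± 0.213 in WT, and Npr2 was 1.83 ± 0.165 in KO and 1.53 ± 0.0944 in WT (± SD, with n = 3 per genotype). After GC correction the log2 changes of Npr1 and Npr2 were -0.032 and 0.033.

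**Figure D4:**
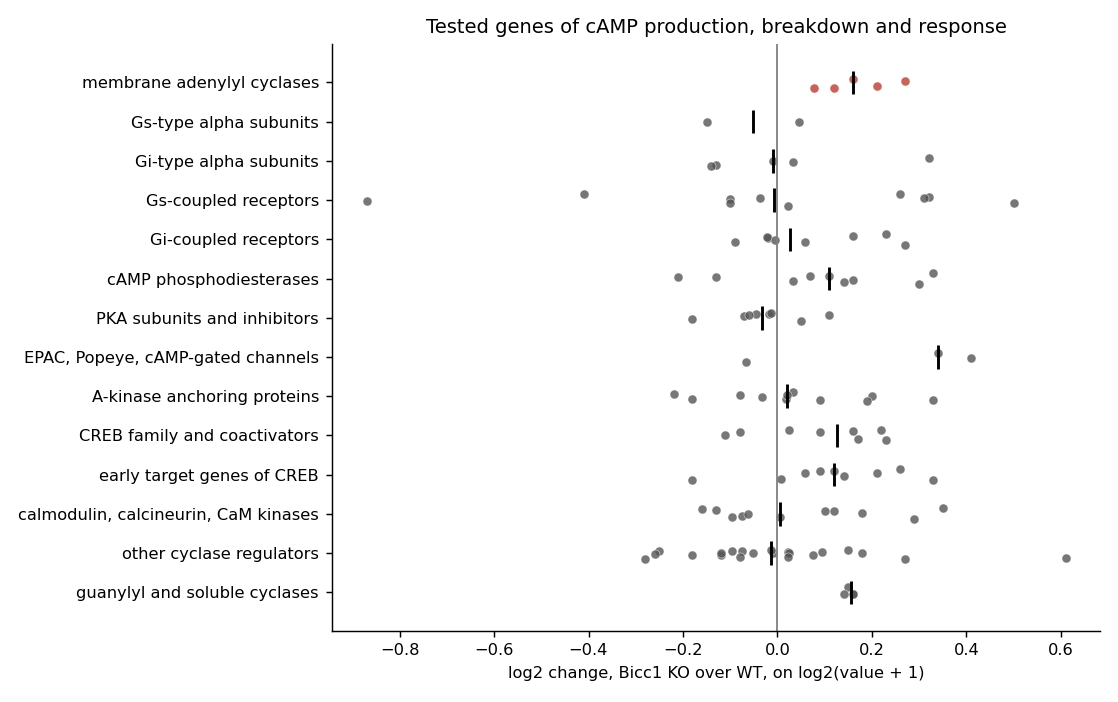
Log2 change (Bicc1 KO over WT) of each tested gene of the membrane adenylyl cyclases (red) and of 13 lists of cAMP signalling genes (grey), with each list's median as a black bar. Points spread on both sides of 0 in most lists, the 5 cyclases lie between 0.078 and 0.27, and Calcr is the point farthest to the left at -0.87.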

How the data were processed

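RNA of 3 Bicc1 KO and 3 WT dorsal pancreata at E13.5 was made into libraries with an unstranded kit (TruSeq RNA v2, per the labels' protocols). The submitters' processing notes name CASAVA 1.82, Bowtie 0.12.7 and mm9. How reads were counted and normalized is not given in the sources used here. Values, as deposited, are a signal per Ensembl gene, used without further scaling, and their depth is unknown. Symbols were matched for 22624 of 24389 identifiers (92.8%), and lengths, exons and GC content came from GENCODE M21, with no coordinates used, since its build differs. Coding sequences were the longest open reading frame of each gene's coding transcripts.

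Genes with a mean of at least 1 (13911) entered limma 3.58.1 (R 4.3.3) as log2(value + 1) (mean-variance trend, group as the only term, two-sided, Benjamini-Hochberg over all genes, threshold 0.05). An exact test of 3 against 3 cannot give a p under 0.1. GC correction was a loess fitted library by library with span 0.3, using the 13385 genes (96.2% of those tested) whose GC content was known. The alternatives were other scalings, filters and pseudocounts, robust moderation, a replicate block, GC terms and leaving out each library. The named genes are the members, Bicc1, Adcy10, in each list those past the threshold or else the 2 with the lowest p, and the 5 closest profiles of Adcy6 and of the member with the lowest p. Pkia and Cpa1 fall outside this rule and were chosen with their values known. The members and lists were chosen with earlier results of these data known. The code was tested on simulated data. Tables used scipy 1.17.1, pandas 2.3.3 and numpy 2.4.6 under Python 3.11.15.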

Additional observations from a re-analysis of the deposited data

How the results depend on the processing

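None of the 5 tested cyclases passed an adjusted p of 0.05 in limma in any of the 19 alternative fits, nor 0.10 in the main one. Adcy1 kept its direction in all of them (log2 change 0.18 to 0.35, and 0.2 to 0.31 with 1 library left out), as did Adcy3 (0.036 to 0.3) and Adcy7 (0.014 to 0.17, and 0.21 untested for KO 3 against WT 1 and WT 2). Adcy6 turned negative after GC correction (-0.02, also with the replicate block), without KO 2 (-0.0067), and with both the correction and KO 2 left out (-0.09, chosen after seeing the data). Leaving out single libraries gave -0.0067 to 0.18. Adcy9 turned negative after GC correction (-0.012, also with the block) and with KO 2 left out as well (-0.025). With GC correction and no filter on low values, an alternative chosen after seeing the data, all 9 members were above 0, Adcy6 at 0.036, and Adcy4 moved to 0.081. No share of all genes above 0 is given for that fit. The cause of this difference between the GC fits was not tested.

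The replicate numbers are shared by KO and WT, and the labels do not say whether they pair the samples. Same-numbered libraries did not deviate together (Pearson's r -0.22, -0.4 and -0.64). With 3 libraries per group that also differ in their GC relation, these correlations cannot decide whether the samples are paired. With the replicate block 0 genes passed in limma, against 2 without it, and Bicc1 was at -1.89 with an adjusted p of 0.088. The count of genes past the threshold was 1 with no filter, 4 after GC correction, 1 with GC correction and the block, 3 when libraries were scaled by totals or at a threshold of 0.10, and 1 to 7 with 1 library left out. Without KO 2, 1 Gs-coupled receptor, Calcr, passed, so the range for that list was 0 to 1. The values carry no counts, so the precision of the low members, Adcy8 above all, cannot be given.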
